A study of Mus musculus with 2 samples.

Results

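The genes described here are 10 secreted regulators of Wnt signaling that stromal cells of the gut are known to make: the R-spondins Rspo1, Rspo2 and Rspo3, the Wnt ligands Wnt2b, Wnt4 and Wnt5a, and the inhibitors Sfrp1, Frzb, Dkk2 and Dkk3. They were matched by exact symbol, with no threshold on their values, and were 10 of the 32285 genes in the count tables. Their UMIs (unique molecular identifiers, 1 for each RNA molecule captured) were summed per library in classes of nuclei that were told apart by other marker genes. Sums are given as CPM, that is, counts per 1e6 UMIs of all genes in the same class and library.

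Wnt ligands bind Frizzled receptors with the coreceptors Lrp5 and Lrp6 and stabilize beta-catenin, or act through Ror and Ryk receptors without it. R-spondins bind Lgr receptors and remove the ubiquitin ligases Rnf43 and Znrf3, which otherwise clear Frizzled from the membrane, so that the cell responds more strongly to Wnt. Sfrp proteins and Frzb bind Wnt outside the cell, and Dkk proteins of the classical type bind Lrp5 and Lrp6. In the colon, stem cells at the crypt base depend on Wnt and R-spondin from the mesenchyme beneath them.

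Single-nucleus RNA sequencing had been performed on snap-frozen colon of WT littermates and of Ncr1cre+ Hif-1α fl+/fl+ mice (HIF-1α KO), all 8 to 12 weeks old and all after chronic colitis from 4 cycles of 3 days of 2% dextran sodium sulfate (DSS) in the drinking water and 4 days of recovery. In the HIF-1α KO mice the Ncr1 promoter drives Cre, which confines the deletion to NKp46+ lymphoid cells, so stromal and epithelial cells keep the gene. Tissue of 3 animals was pooled into 1 library per genotype. No untreated mice were analysed here. With 1 library per genotype no difference between genotypes has a replicate check, no test was made, and all intervals below are exact 95% intervals that cover counting error only.

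After filtering, 4884 WT and 4702 HIF-1α KO nuclei remained, with 13259430 and 23605502 UMIs and a median of 2058.5 and 4197 UMIs per nucleus. The libraries shared 3 barcodes. The targeted gene Hif1a was at 172 (165 to 179) CPM in WT and 199 (193 to 205) CPM in HIF-1α KO nuclei, and Ncr1 had 1 and 0 UMIs, so the deletion cannot be checked in these nuclei. There were 229 WT and 118 HIF-1α KO fibroblast nuclei, and, in the same order, smooth muscle nuclei were 275 and 129, blood endothelial nuclei 79 and 33, lymphatic endothelial nuclei 82 and 45 and epithelial nuclei 3255 and 3877. The small classes were mesothelial (17 and 13), neuron (26 and 22) and glia (12 and 8). In fibroblast nuclei all 9 fibroblast markers were found, at a summed 3832 CPM in WT and 4259 CPM in HIF-1α KO, against 101 and 30.7 CPM in epithelial nuclei. In smooth muscle nuclei all 9 smooth muscle markers were found, at 7103 and 13951 CPM, against 126 and 73.0 CPM in epithelial nuclei. Stromal RNA found in epithelial nuclei was therefore higher in the WT library. No class name was given to 15.4% of WT nuclei and 3.85% of HIF-1α KO nuclei.

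The promoters of Rspo1 and Dkk2 are shown because the UMIs of these genes lay in few nuclei, among them mesothelial nuclei for Rspo1 and smooth muscle and a few endothelial nuclei for Dkk2, and because their windows end at the gene starts used below. The RefSeq table of mouse promoters on GRCm38.p6 held 5 of the 10 genes (Rspo1, Wnt2b, Wnt4, Dkk2 and Frzb). Both sequences are the 250 bases before the annotated start, 5′ to 3′ on the strand of the gene. Capitals mark the TATA box TATAAA, the GC box GGGCGG and the CCAAT box CCAAT on either strand. The TCF motifs CTTTGAT and CTTTGAA were searched on both strands as well.
Rspo1, chr4:124986180-124986429, plus strand: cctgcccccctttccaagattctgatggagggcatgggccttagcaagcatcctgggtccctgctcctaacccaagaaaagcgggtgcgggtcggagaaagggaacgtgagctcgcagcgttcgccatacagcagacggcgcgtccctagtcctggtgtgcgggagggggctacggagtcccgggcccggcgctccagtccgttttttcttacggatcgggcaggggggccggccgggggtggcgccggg
Dkk2, chr3:132085042-132085291, plus strand: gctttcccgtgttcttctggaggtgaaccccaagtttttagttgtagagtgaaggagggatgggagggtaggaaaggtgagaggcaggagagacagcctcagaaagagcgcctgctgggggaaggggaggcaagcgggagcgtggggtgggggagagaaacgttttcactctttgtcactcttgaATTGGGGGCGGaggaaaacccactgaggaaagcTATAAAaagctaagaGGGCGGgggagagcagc
The Dkk2 window held a TATA box 32 bases before the start, GC boxes at 60 and 17 bases, and next to the first of these a CCAAT box on the opposite strand at 65 bases. The Rspo1 window, with 66.8% G and C against 55.6% in Dkk2, held none of the 5 motifs. Of 32851 promoter windows of the same length, 12.4% held the TATA box, 32.7% the GC box, 33.8% the CCAAT box, 3.21% CTTTGAT and 4.46% CTTTGAA.

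The 10 genes divided by cell class. Among classes with at least 50 nuclei per library, 7 of the 10 genes (Rspo2, Wnt2b, Wnt4, Wnt5a, Sfrp1, Dkk3 and Frzb) had their highest CPM in fibroblast nuclei in both libraries. This limit also left out both endothelial classes (33 and 45 HIF-1α KO nuclei). The share of all genes highest in fibroblast nuclei was not computed, so the count is a description. Frzb was near a tie with smooth muscle nuclei, at 7 against 8 UMIs in WT and 3 against 3 in HIF-1α KO. Rspo2 rested on 5 and 3 fibroblast UMIs. Rspo3 was highest in smooth muscle nuclei in both. With the small classes ranked too, a choice made after the data were seen, the count of genes highest in fibroblast nuclei was 2 (Wnt2b and Wnt4): Rspo1 and Wnt5a were then highest in mesothelial nuclei, Rspo2 in neurons, and Sfrp1 and Frzb in glia, in both libraries. For Sfrp1 the glia level was 163 CPM in WT and 52.2 CPM in HIF-1α KO, against 88.4 and 40.3 CPM in fibroblast nuclei. It rested on 5 UMIs in WT glia and on 2 in HIF-1α KO glia, both in 1 nucleus. The map of CPM by class shows this placement.

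**Figure D1:**
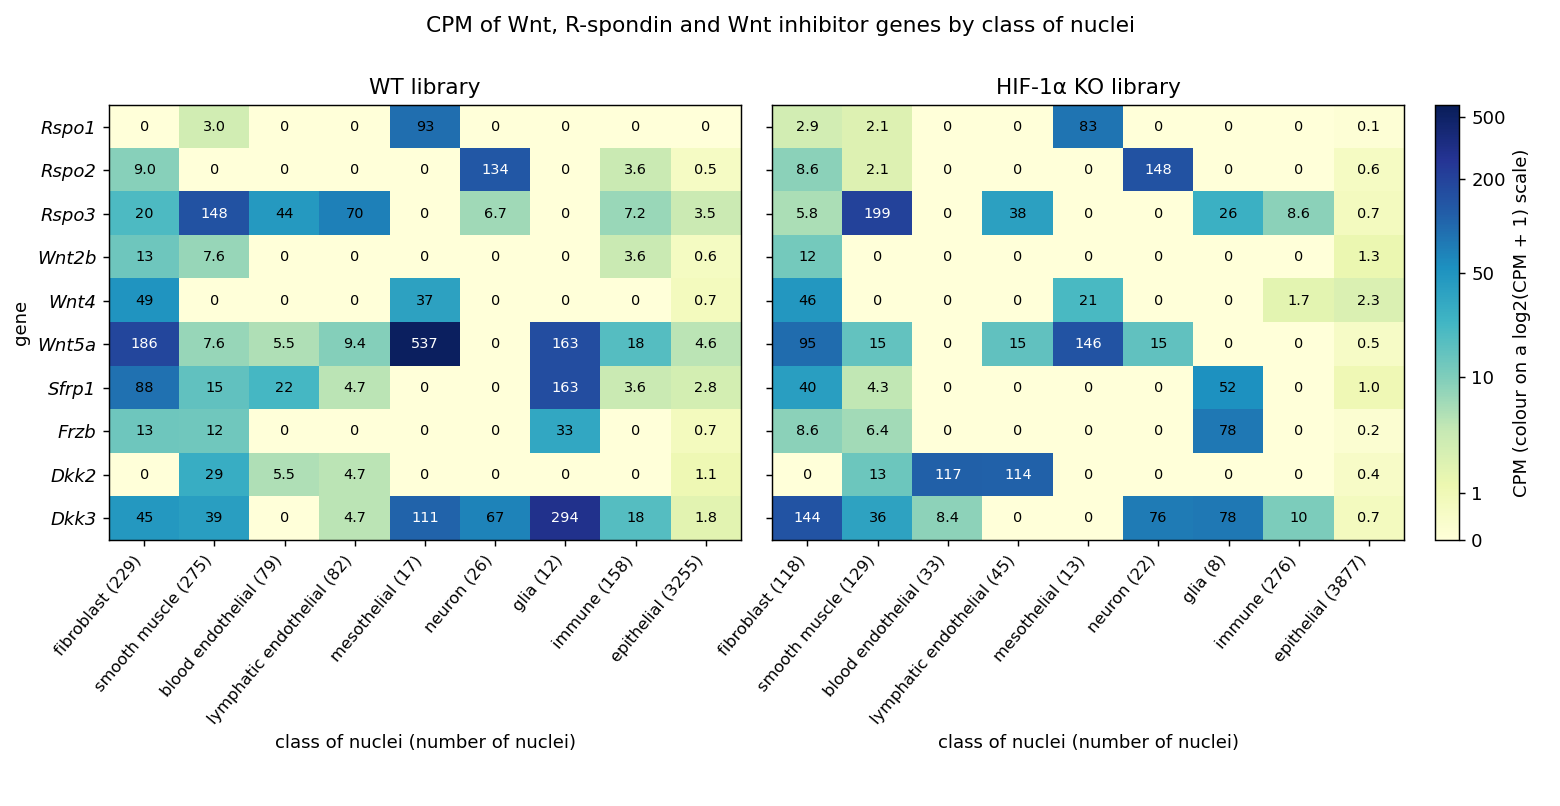
CPM of the 10 genes (rows) in 9 classes of nuclei (columns, with the number of nuclei) for WT (left) and HIF-1α KO (right), with colour on a log2(CPM + 1) scale and the CPM written in each cell. Rspo3 is darkest in smooth muscle, Rspo2 in neurons and Rspo1 in mesothelial nuclei of both libraries, while Dkk2 reaches 117 and 114 CPM only in the endothelial classes of the HIF-1α KO library.

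Rspo3 (ENSMUSG00000019880, chromosome 10, 29452416 to 29535867, minus strand of GRCm38), an R-spondin with a known part in vessels and in the crypt niche, had the largest share of its UMIs in the smooth muscle class. Of all Rspo3 UMIs, smooth muscle nuclei held 98 of 188 in WT (52.1%) and 93 of 121 in HIF-1α KO (76.9%). The level was 148 (120 to 181) CPM in WT and 199 (161 to 244) CPM in HIF-1α KO smooth muscle nuclei, and a UMI was found in 63 of 275 (22.9%) and 37 of 129 (28.7%) nuclei. Goblet nuclei, which should lack it and were deeper (median 2558 and 4612 UMIs against 1954 and 2397), had a UMI in 0.855% and 0.420%. The log2 ratio of HIF-1α KO over WT was 0.42 (-0.00069 to 0.85), inside 2-fold, and its interval reached 0. With every nucleus thinned to 1000 UMIs, which left out 3 HIF-1α KO nuclei, the shares were 13.1% and 12.7%.

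Rspo3 was uneven within the smooth muscle class. Clustered again without the 10 genes, smooth muscle nuclei gave 6 subgroups, called here by number. Subgroup 1, led by Ntrk3, Fgf10 and Col12a1, carried the highest Rspo3 level in both libraries, at 347 CPM in WT (57 UMIs, 80 nuclei) and 375 CPM in HIF-1α KO (18 UMIs, 14 nuclei). None of the smooth muscle markers was among the 10 leading genes of this subgroup. The log2 ratio within this subgroup was 0.11 (-0.74 to 0.90). Subgroup 2, led by Lrrc7, Nrp1 and Efna5, went from 99.1 CPM in 62 WT nuclei to 279 CPM in 28 HIF-1α KO nuclei, a log2 ratio of 1.49 (0.61 to 2.45). Its 15 WT UMIs of Rspo3 lay in 10 nuclei and its 42 HIF-1α KO UMIs in 14, up to 9 in 1 nucleus. The median depth of the subgroup was 2225 UMIs in WT and 4894.5 in HIF-1α KO. The interval treats UMIs of the same nucleus as independent counts. The other four subgroups lay between 53.1 and 126 CPM in WT and between 100.3 and 149 CPM in HIF-1α KO, each with an interval that held 0. Subgroup 1 made up 29.1% of the smooth muscle nuclei in WT and 10.9% in HIF-1α KO, and subgroup 4, led by mitochondrial genes, Rgs5 and Egr1, 6.91% and 36.4%. Beside these values, the 6 immediate-early genes summed to 117 CPM in WT and 227 CPM in HIF-1α KO smooth muscle nuclei, with Egr1 at 6.06 and 57.8 CPM, and the smooth muscle markers themselves were 7103 and 13951 CPM. Their part in the Rspo3 values was not tested.

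**Figure D2:**
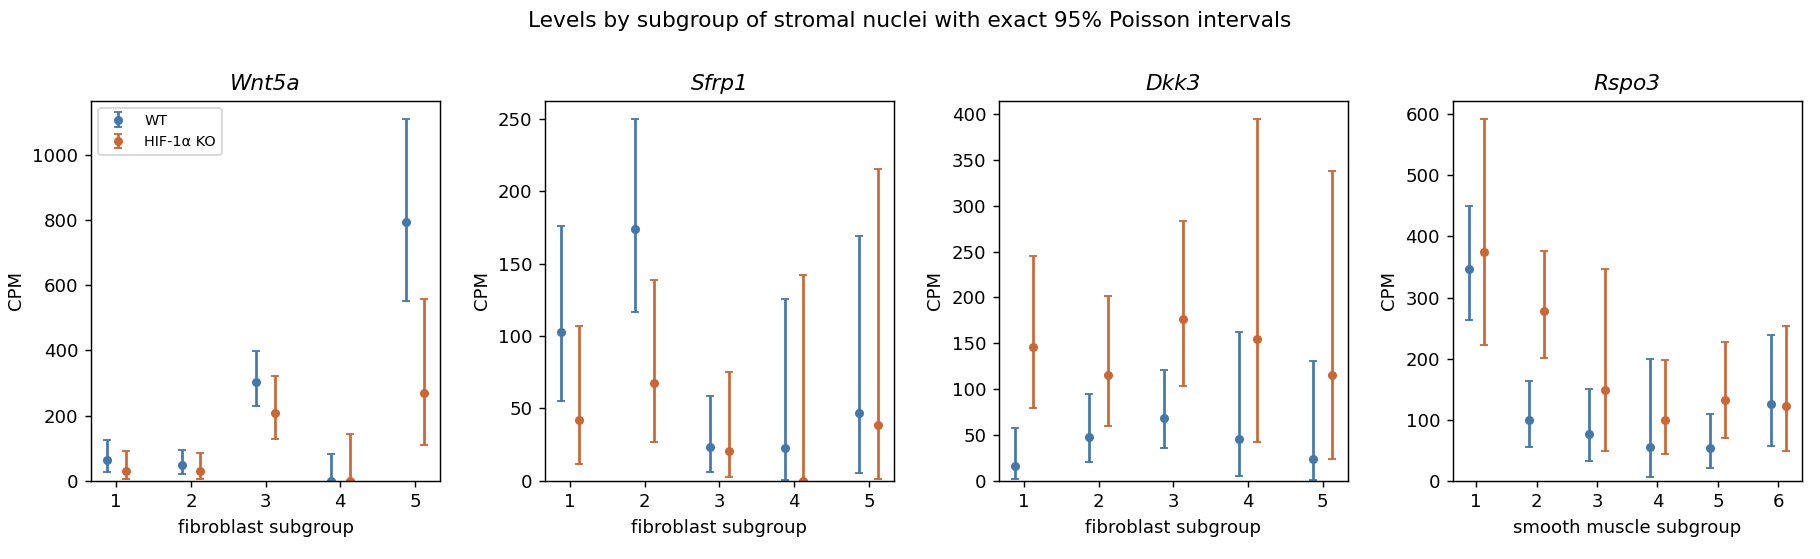
CPM (y axis, linear from 0) of Wnt5a, Sfrp1 and Dkk3 in 5 fibroblast subgroups and of Rspo3 in 6 smooth muscle subgroups (x axis), WT in blue and HIF-1α KO in orange, with exact 95% Poisson intervals. Wnt5a stands highest in fibroblast subgroup 5 (796 CPM in WT), Sfrp1 in subgroup 2 (174 CPM in WT), Dkk3 is higher in the HIF-1α KO library in each of the 5, and Rspo3 stands highest in smooth muscle subgroup 1.

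Outside smooth muscle, Rspo3 was found in lymphatic endothelial nuclei, at 70.4 (39.4 to 116) CPM in WT and 38.1 (12.4 to 88.9) CPM in HIF-1α KO. This was 15 UMIs in 10 of 82 nuclei and 5 UMIs in 3 of 45. In blood endothelial nuclei it had 8 UMIs in 3 WT nuclei, 6 of them in 1 nucleus, and 0 in HIF-1α KO, which allows up to 25.1 CPM. Fibroblast nuclei held 11 and 2 Rspo3 UMIs, or 19.9 and 5.75 CPM.

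Rspo2 (ENSMUSG00000051920, chromosome 15, 43020794 to 43170826, minus strand) was found mainly in the small neuron class and at a like level in both libraries. It was at 134 (81.9 to 207) CPM in WT and 148 (98.8 to 212) CPM in HIF-1α KO neurons, a log2 ratio of 0.14 (-0.73 to 1.04). The 20 WT UMIs came from 5 of 26 nuclei (7, 5, 5, 2 and 1) and the 29 HIF-1α KO UMIs from 7 of 22 nuclei (11, 6, 5, 3, 2, 1 and 1). Neurons held 62.5% and 64.4% of all Rspo2 UMIs of the libraries. Fibroblast nuclei had 5 and 3 UMIs, or 9.02 and 8.63 CPM, against 0.502 and 0.567 CPM in epithelial nuclei.

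Rspo1 (ENSMUSG00000028871, chromosome 4, 124986430 to 125009099, plus strand) had 8 UMIs in each library. Of these, 5 WT UMIs lay in 5 of 17 mesothelial nuclei and 4 HIF-1α KO UMIs in 1 of 13, at 92.6 (30.1 to 216) and 83.3 (22.7 to 213) CPM. Fibroblast nuclei held 0 and 1 UMI, and 0 in WT allows up to 5.41 CPM.

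Of the Wnt ligands, Wnt5a (ENSMUSG00000021994, chromosome 14, 28504750 to 28527448, plus strand), which mostly signals without beta-catenin and is known from mesenchyme at the crypt top and in wounds, had the lower level in HIF-1α KO fibroblast nuclei. The level was 186 (152 to 225) CPM in WT and 94.9 (65.3 to 133) CPM in HIF-1α KO, from 103 UMIs in 41 of 229 nuclei and 33 UMIs in 17 of 118. The log2 ratio was -0.97 (-1.58 to -0.39), just inside the 2-fold line. The share of nuclei with a UMI was 17.9% and 14.4%, and 11.8% and 7.96% after thinning to 1000 UMIs, which left out 5 HIF-1α KO nuclei. In goblet nuclei the share was 1.20% in WT and 0% in HIF-1α KO (0 of 953, which allows up to 0.601 CPM).

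Fibroblast nuclei fell into 5 subgroups when clustered again, and Wnt5a was concentrated in subgroups 3 and 5. Subgroup 3 was led by Sox6, Col4a6 and Col4a5 and also had Bmp7, Nrg1 and Pdgfra past 2-fold over the other fibroblast nuclei, and its Wnt5a level was 304 CPM in WT and 208 CPM in HIF-1α KO. Bmp7 and Nrg1 come from a marker list that also holds Foxl1, F3, Sox6 and Bmp3, and no cell type is read from them. Subgroup 5 was led by Mmp13, Cemip and Khdrbs2, with Inhba among its 10 leading genes, and held 13 WT and 4 HIF-1α KO nuclei, at 796 and 270 CPM (34 and 7 UMIs). In subgroups 1 and 2 Wnt5a was at 63.3 and 48.0 CPM in WT and 31.3 and 28.9 CPM in HIF-1α KO, and subgroup 4 had none in either library. It was lower in HIF-1α KO in the 4 subgroups that had it, and only in subgroup 5 did the interval of the log2 ratio stay off 0, at -1.56 (-2.98 to -0.36). There the 34 WT UMIs lay in 8 of 13 nuclei, up to 10 in 1 nucleus, and the 7 HIF-1α KO UMIs in 4 of 4. The share of nuclei with a UMI thus went the other way, and the interval treats UMIs of the same nucleus as independent counts.

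In mesothelial nuclei, the lining of the outer gut wall, Wnt5a was at 537 (360 to 772) CPM in WT, from 29 UMIs in 7 of 17 nuclei, and at 146 (58.6 to 300.5) CPM in HIF-1α KO, from 7 UMIs in 4 of 13. The log2 ratio was -1.88 (-3.32 to -0.66), from 36 UMIs in all. In fibroblast nuclei the 5 mesothelial markers summed to 14.4 CPM in WT (3 of 5 found) and to 0 in HIF-1α KO. The part of mesothelial RNA in the fibroblast Wnt5a values was not tested.

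Wnt4 (ENSMUSG00000036856, chromosome 4, 137277489 to 137299726, plus strand), another ligand of mesenchyme, was placed in fibroblast nuclei and did not differ there beyond counting error. It was at 48.7 (32.1 to 70.9) CPM in WT and 46.0 (26.3 to 74.7) CPM in HIF-1α KO, with 27 UMIs in 19 nuclei and 16 UMIs in 13, a log2 ratio of -0.08 (-1.07 to 0.86). One WT nucleus held 8 of the 27. Its highest subgroup was subgroup 3, as for Wnt5a, at 86.2 and 104 CPM. Smooth muscle nuclei had no Wnt4 UMI in either library, which allows up to 4.54 CPM in WT and 6.43 CPM in HIF-1α KO. Both Wnt5a and Wnt4 were found together in 6 WT and 3 HIF-1α KO fibroblast nuclei.

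Wnt2b (ENSMUSG00000027840, chromosome 3, 104945272 to 104961921, minus strand), which signals through beta-catenin, was sparse. Fibroblast nuclei held 7 and 4 UMIs, at 12.6 (5.08 to 26.0) and 11.5 (3.13 to 29.5) CPM, and smooth muscle nuclei 5 and 0. Each of these UMIs lay in a nucleus of its own. At this depth no difference between the libraries was detectable in fibroblast nuclei. Of the 32 Wnt2b UMIs of HIF-1α KO nuclei, the other 28 lay in epithelial nuclei, 11 of them in goblet nuclei. In WT, epithelial nuclei held 6 of 22. Epithelial nuclei also held 89.7% of the UMIs of all genes in HIF-1α KO and 75.2% in WT. By CPM, given below, the interval of the epithelial log2 ratio of Wnt2b held 0.

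Among the inhibitors, Sfrp1 and Dkk3 differed between the fibroblast nuclei of the libraries in opposite directions. Sfrp1 (ENSMUSG00000031548, chromosome 8, 23411502 to 23449632, plus strand) was at 88.4 (65.4 to 117) CPM in WT, from 49 UMIs in 32 of 229 nuclei, and at 40.3 (22.01 to 67.6) CPM in HIF-1α KO, from 14 UMIs in 12 of 118. The log2 ratio was -1.14 (-2.11 to -0.26). No nucleus held more than 3 UMIs, and the share with a UMI was 13.97% and 10.2%, against 0.342% and 0.735% of goblet nuclei. Sfrp1 stood highest in subgroup 2, led by Lepr, Frmpd4 and Frmd5 and with the BMP inhibitor Grem1 at 122 CPM against 20.6 CPM in the other fibroblast nuclei. Grem1 comes from a marker list that also holds Cd81, Cd34 and Ackr4, and no cell type is read from it. In subgroup 2 Sfrp1 was at 174 CPM in WT and 67.4 CPM in HIF-1α KO, a log2 ratio of -1.37 (-2.80 to -0.15). Wnt5a, found in 41 WT and 17 HIF-1α KO fibroblast nuclei, was together with Sfrp1 in 3 WT and 1 HIF-1α KO nucleus. With both genes found in so few nuclei, these counts cannot show whether the genes avoid each other.

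Dkk3 (ENSMUSG00000030772, chromosome 7, 112116017 to 112159057, minus strand), a divergent Dkk family member whose action on Wnt is less settled, was higher in HIF-1α KO fibroblast nuclei. It was at 45.1 (29.2 to 66.6) CPM in WT, from 25 UMIs in 19 of 229 nuclei, and at 144 (107 to 190) CPM in HIF-1α KO, from 50 UMIs in 28 of 118. The log2 ratio was 1.67 (0.95 to 2.43), a 3.19-fold difference. One HIF-1α KO nucleus held 10 of the 50 UMIs, and without the top nucleus of each library the log2 ratio was 1.54. The share of nuclei with a UMI was 8.30% in WT and 23.7% in HIF-1α KO, and 4.803% and 9.73% after thinning. In goblet nuclei it was 0.855% and 0.420%.

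The Dkk3 level was higher in HIF-1α KO in each of the 5 subgroups of the fibroblast class. Subgroup 4, led by Dmd, Hhip and Lrrc7, had 8 of 9 smooth muscle markers past 2-fold over the other fibroblast nuclei and none of the 9 fibroblast markers past it, so its markers go against the class name; it held 23 WT and 8 HIF-1α KO nuclei. Subgroup 1, led by Ebf1, Notch3 and Rgs5, went from 15.8 CPM (2 UMIs) to 146 CPM (14 UMIs, 10 of them in the nucleus named above). Subgroup 2 had 48.0 and 116 CPM, subgroup 3 had 68.9 and 177 CPM, subgroup 4 had 45.1 and 154 CPM, and subgroup 5 had 23.4 and 116 CPM. The interval of the log2 ratio stayed above 0 in subgroups 1 and 3. In subgroup 1 it treats the 10 UMIs of 1 nucleus as independent counts. Subgroup 1 had 4 of 5 pericyte markers past 2-fold over the other fibroblast nuclei, and also 5 of 8 epithelial markers, and its share of the class was 27.9% in WT and 39.8% in HIF-1α KO. Summed over all fibroblast nuclei, the pericyte markers were at 123 and 190 CPM, the smooth muscle markers at 699 and 1084 CPM, the epithelial markers at 1633 and 2258 CPM, the glial markers at 12.6 and 2.88 CPM and the neuron markers at 278 and 178 CPM. Their part in the Dkk3 difference was not tested. Dkk3 itself was at 1.81 and 0.661 CPM in epithelial and at 39.4 and 36.4 CPM in smooth muscle nuclei.

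Dkk3 was also found in neurons, at 67.0 (32.1 to 123) CPM in WT and 76.3 (42.7 to 126) CPM in HIF-1α KO, and in glia, at 294 (134 to 558) CPM from 9 UMIs and 78.3 (16.1 to 229) CPM from 3 UMIs. In smooth muscle nuclei the log2 ratio was -0.11 (-1.09 to 0.82), from 26 and 17 UMIs in 23 and 13 nuclei.

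**Figure D3:**
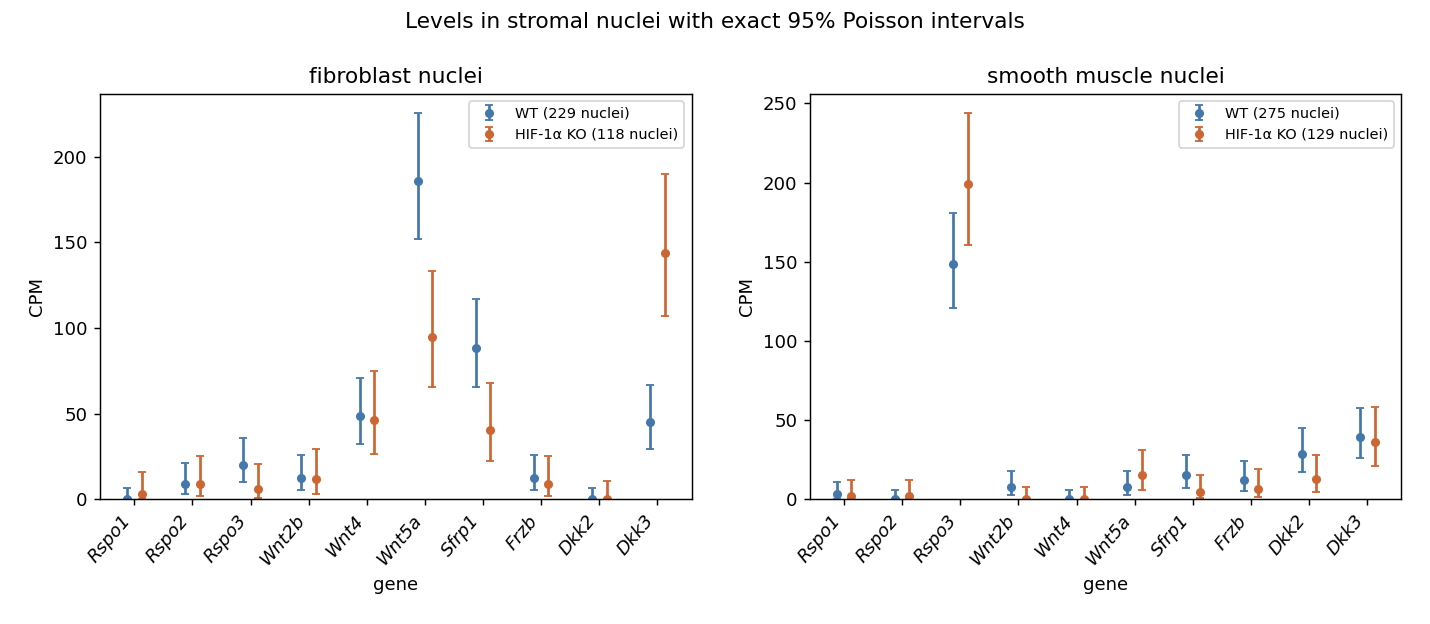
CPM (y axis, linear from 0) of the 10 genes in fibroblast (left) and smooth muscle nuclei (right), WT in blue and HIF-1α KO in orange, points for the level and bars for the exact 95% Poisson interval. In fibroblast nuclei the intervals of Wnt5a (186 against 94.9 CPM) and Dkk3 (45.1 against 144 CPM) stand apart, those of Sfrp1 (88.4 against 40.3 CPM) overlap slightly, and in smooth muscle nuclei Rspo3 (148 against 199 CPM) overlaps.

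The count of these differences was small. With a call at 2-fold, made only for genes that had 50 UMIs or more in the class over both libraries, 3 of the 10 genes could be called in fibroblast nuclei (Wnt5a, Sfrp1 and Dkk3), 1 was called higher (Dkk3) and 1 lower (Sfrp1) in HIF-1α KO. Over all 3906 genes that could be called, 3.76% passed either way, 2.02% higher and 1.74% lower, with a median log2 ratio of 0.07. Wnt5a, at 1.96-fold lower, was the gene just inside the line and Sfrp1, at 2.20-fold lower, the one just outside. In smooth muscle nuclei only Rspo3 could be called and it was not, against 5.21% of 4262 genes either way. No member reached 50 UMIs in blood or lymphatic endothelial nuclei, where 5.61% of 1337 and 6.72% of 1606 genes passed. The remaining 7 genes in fibroblast nuclei lay between 0 and 43 UMIs over both libraries.

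Dkk2 (ENSMUSG00000028031, chromosome 3, 132085292 to 132180304, plus strand), an Lrp5 and Lrp6 binding inhibitor, was absent from the counts of fibroblast nuclei, where 0 UMIs allow up to 5.41 CPM in WT and 8.63 CPM in HIF-1α KO. In smooth muscle nuclei it was at 28.8 (17.3 to 44.9) CPM in WT, from 19 UMIs in 10 nuclei, and at 12.9 (4.72 to 28.0) CPM in HIF-1α KO, from 6 UMIs in 3 nuclei. The log2 ratio of -1.16 (-2.78 to 0.22) had an interval that held 0. With each nucleus placed by its own marker score it was 1.37, and after thinning 0.39, so its direction was not stable.

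In endothelial nuclei the order was the other way. Blood endothelial nuclei held 1 Dkk2 UMI in 1 of 79 WT nuclei and 14 UMIs in 4 of 33 HIF-1α KO nuclei (4, 4, 3 and 3), or 5.50 (0.139 to 30.6) and 117 (64.0 to 196) CPM, a log2 ratio of 4.41 (1.70 to 9.81). Those 4 nuclei had 4747 to 7922 UMIs, above the class medians of 1948 in WT and 2752 in HIF-1α KO, and no blood endothelial nucleus of either library kept a Dkk2 UMI after thinning to 1000. Lymphatic endothelial nuclei held 1 UMI in WT and 15 in HIF-1α KO, but all 15 lay in 1 nucleus of 8481 UMIs. That nucleus had 14 UMIs from 3 of the 9 blood endothelial markers, 3 from 2 of the 8 lymphatic markers and 11 from 6 of the 8 epithelial markers, so its markers go against its class. Fibroblast markers had 0 UMIs in it. A further 9 Dkk2 UMIs of the HIF-1α KO library lay in 1 enteroendocrine nucleus. The plot of single nuclei shows how few nuclei carry these sums.

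**Figure D4:**
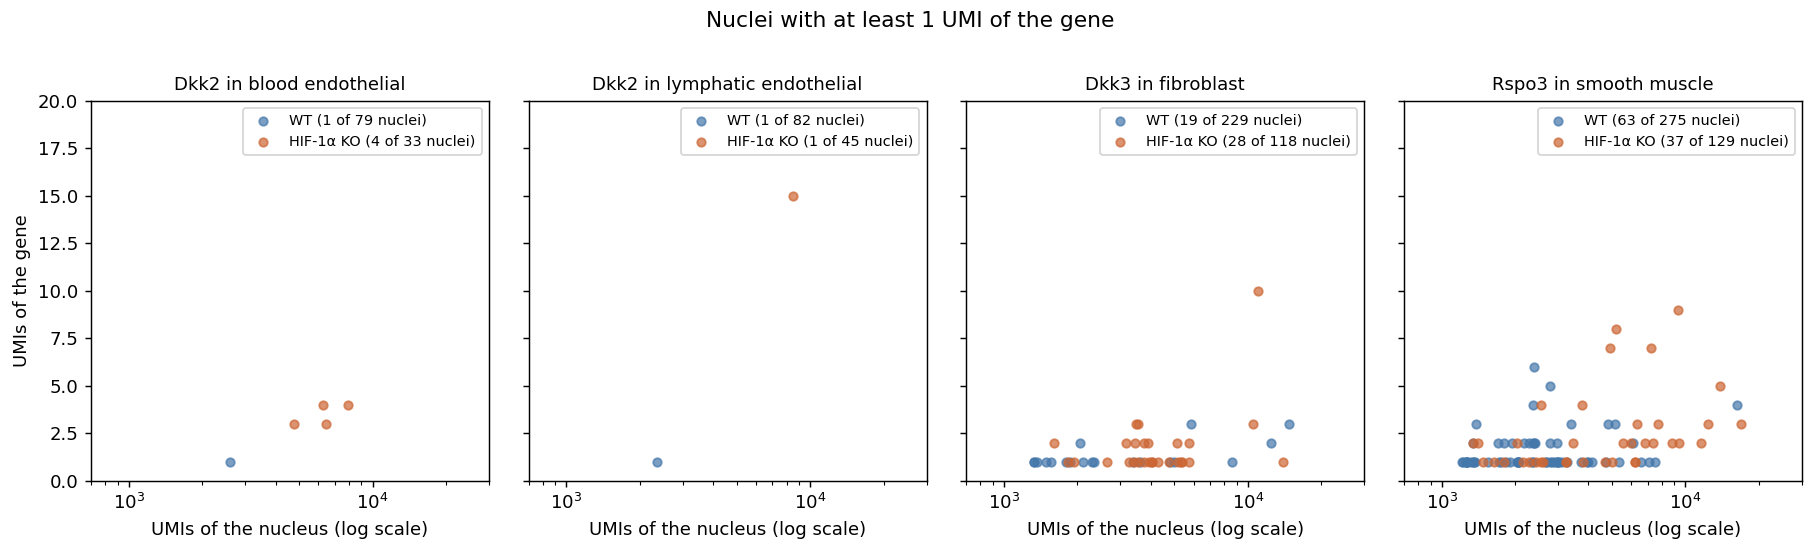
UMIs of the gene (y axis) against all UMIs of the nucleus (x axis, log scale) for every nucleus with at least 1 UMI of the gene, WT in blue and HIF-1α KO in orange. Dkk2 rests on 4 HIF-1α KO blood endothelial nuclei with 3 or 4 UMIs and on 1 lymphatic nucleus with 15, whereas Dkk3 in fibroblast nuclei is spread over 28 and Rspo3 in smooth muscle nuclei over 37 HIF-1α KO nuclei.

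Frzb (ENSMUSG00000027004, chromosome 2, 80411970 to 80447625, minus strand), a Wnt-binding relative of Sfrp1, was low in fibroblast and smooth muscle nuclei and highest in glia. It was at 12.6 and 8.63 CPM in fibroblast nuclei (7 and 3 UMIs), at 12.1 and 6.43 CPM in smooth muscle nuclei (8 and 3 UMIs), and at 32.6 (0.826 to 182) and 78.3 (16.1 to 229) CPM in glia, from 1 and 3 UMIs. The intervals of its log2 ratios held 0 in each of these classes.

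The other genes of the pathway, 62 ligands, receptors, inhibitors and transducers grouped by role, seldom had enough UMIs in stromal nuclei to be called. In fibroblast nuclei 42 had a UMI and 15 could be called, of which 1 was higher and 0 lower in HIF-1α KO, against 3.76% of all genes either way, with a median log2 ratio of 0.18 beside 0.07 over all genes. In smooth muscle nuclei 13 could be called and 0 passed, against 5.21% of all genes, with a median of 0.02 beside 0.03 over all genes. Genes with fewer UMIs, among them Wnt2 and Sfrp2 below, could lie past 2-fold without being called.

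The gene past 2-fold was Lef1, a transcription factor that partners beta-catenin, at 74.0 (53.1 to 100.4) CPM in WT fibroblast nuclei and 233 (185 to 290) CPM in HIF-1α KO, a log2 ratio of 1.65 (1.10 to 2.23). It had 41 UMIs in 16 WT nuclei, 16 of them in 1 nucleus, and 81 UMIs in 21 HIF-1α KO nuclei, 24 of them in 1. Lef1 lay mostly in subgroup 3, the subgroup with high Wnt5a and Wnt4, at 184 and 698 CPM (32 and 67 UMIs), and was itself among the 10 leading genes of that subgroup. Tcf7l2, the commonest partner of beta-catenin in the gut, was at 765 and 866 CPM.

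Of the receptors with most UMIs in fibroblast nuclei, Ror1 was at 702 and 716 CPM and Ror2, the main receptor of Wnt5a, at 536 and 483 CPM, with log2 ratios of 0.03 (-0.21 to 0.26) and -0.15 (-0.43 to 0.13). The R-spondin receptor Lgr4 was at 242 and 276 CPM and the ligase Znrf3 at 166 and 101 CPM, with a log2 ratio of -0.72 (-1.33 to -0.15). Wls, which carries Wnt proteins to the cell surface, was at 282 and 371 CPM, and Porcn, which attaches their lipid, had 3 and 2 UMIs. Kremen1, a receptor of Dkk proteins, was at 105 and 69.0 CPM, and Sfrp2 had 14 UMIs in WT and 1 in HIF-1α KO.

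The ligands outside the 10 that had most fibroblast UMIs were Wnt5b and Wnt2. Wnt5b was at 81.2 and 135 CPM in fibroblast nuclei, a log2 ratio of 0.73 (0.11 to 1.36), and had 10 and 34 UMIs in smooth muscle nuclei. Wnt2 went the other way, with 23 and 7 UMIs in fibroblast nuclei and 34 and 2 UMIs in smooth muscle nuclei, where the log2 ratio was -3.59 (-6.69 to -1.62). Wnt2 had under 50 UMIs in both classes and Wnt5b in smooth muscle nuclei, so these were not called.

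**Figure D5:**
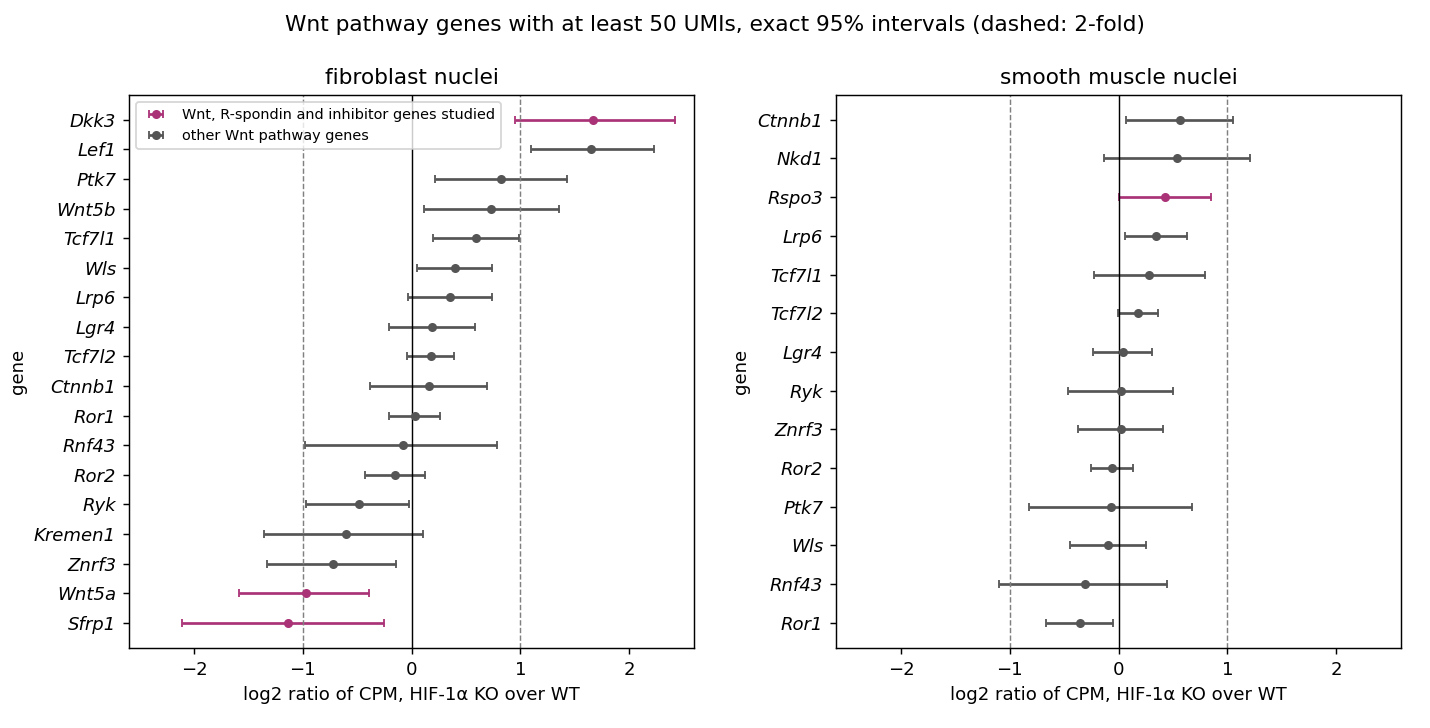
Log2 ratio of CPM, HIF-1α KO over WT (x axis), of every Wnt pathway gene with at least 50 UMIs in fibroblast (left) and smooth muscle nuclei (right), the genes studied here in purple and other pathway genes in grey, with exact 95% intervals and dashed lines at 2-fold. Dkk3 and Lef1 stand past the upper line and Sfrp1 past the lower in fibroblast nuclei, and no gene is past either line in smooth muscle nuclei.

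In epithelial nuclei all 10 genes were at or below 4.62 CPM, under the level of the stromal classes named above. Wnt5a was at 4.62 CPM in WT and 0.472 CPM in HIF-1α KO (46 and 10 UMIs), Rspo3 at 3.51 and 0.661 CPM (35 and 14 UMIs) and Sfrp1 at 2.81 and 1.04 CPM (28 and 22 UMIs). The fibroblast markers in the same nuclei were at 101 and 30.7 CPM and the smooth muscle markers at 126 and 73.0 CPM, also lower in HIF-1α KO, and their part in these values was not tested. Wnt2b and Wnt4 had the other order. Wnt2b was at 0.602 CPM in WT (6 UMIs) and 1.32 CPM in HIF-1α KO (28 UMIs), a log2 ratio of 1.14 (-0.16 to 2.70) whose interval held 0. Wnt4 was at 0.702 CPM in WT (7 UMIs) and 2.27 CPM in HIF-1α KO (48 UMIs in 47 of 3877 nuclei), a log2 ratio of 1.69 (0.54 to 3.08). The HIF-1α KO Wnt4 UMIs lay in absorptive (15), goblet (12), cycling (3), enteroendocrine (2) and other epithelial nuclei (16), with 0 in crypt base nuclei. After thinning to 1000 UMIs, 2 WT and 11 HIF-1α KO epithelial nuclei had a Wnt4 UMI. By the 2-fold call Wnt4 was higher and Wnt5a and Sfrp1 lower, 3 of the 3 genes that could be called, against 11.8% of 13297 genes, 5.79% higher and 5.99% lower.

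Of the 26 pathway genes that could be called in epithelial nuclei, 1 was higher and 1 lower, against 11.8% of all genes either way. Over all genes 5.79% were higher and 5.99% lower, so the count of pathway genes did not stand out. Tcf7l1, a repressor of Wnt targets, was at 28.6 and 78.9 CPM, a log2 ratio of 1.46 (1.28 to 1.65), and its annotated span overlaps 6 predicted genes, 3 on each strand. Wif1, another Wnt-binding inhibitor, was at 2.71 and 1.28 CPM with 27 UMIs in each library.

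The posterior Hox genes, which mark the distal gut, summed to 63.2 and 77.7 CPM in fibroblast and 164 and 141 CPM in smooth muscle nuclei. The anterior Hox genes summed to 14.4 and 20.1 CPM and to 129 and 167 CPM, while over all nuclei they were at 35.2 CPM in WT and 13.9 CPM in HIF-1α KO. Xist had 0 UMIs in fibroblast and smooth muscle nuclei of both libraries and the Y-linked gene Uty was at 403 and 371 CPM in fibroblast nuclei. The immediate-early genes, which also respond to tissue handling, summed to 193 and 288 CPM in fibroblast nuclei. Their part in the differences above was not tested.

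The genes most alike in pattern were found by Pearson's r of log2(CPM + 10) over 28 points, the 14 classes of the 2 libraries, among 10971 genes with at least 200 UMIs. These points share libraries and depth and are not independent, and r is a description. Rspo3 was most like Des (0.83), Pgm5 (0.81) and Tns1 (0.79), the first a muscle filament gene. Des and Pgm5, and Pdgfra below, were among the markers that named the classes, so these matches repeat the placement by class. Rspo2 was most like the neuronal genes Epha5 (0.98) and Grik1 (0.97), and Thsd7b (0.97). Wnt5a was most like Efemp1 (0.89), Fgf9 (0.88) and C1s1 (0.87), Wnt4 like Mrc2 (0.89), Tmem176b (0.83) and Col24a1 (0.82), and Wnt2b like Bmp5 (0.84), Adamdec1 (0.83) and Pdgfra (0.81), the last a defining fibroblast marker. Sfrp1 was most like Gpm6b (0.87), Col12a1 (0.86) and Matn2 (0.86), and Dkk3 like Col27a1 (0.89), Zfp536 (0.89) and Adgrl3 (0.87). Dkk2 reached 0.70 with Gcsh, 0.67 with Dock9 and 0.66 with Fgd5.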

How the data were processed

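Counts of UMIs per gene and nucleus of 2 libraries were used. The authors had made these deposited counts with Cell Ranger 7.0.1 on mm10 and its default cell calling, without normalization; whether intronic reads were counted is not given in the sources used here. Nuclei with 400 to 5000 detected genes and at most 10% mitochondrial UMIs were kept, which is also the only treatment of doublets. Depth was 13492810 UMIs in 4896 WT and 25489277 UMIs in 4772 HIF-1α KO barcodes before this filter.

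Libraries were integrated with canonical correlation anchors in Seurat 5.3.0 (R 4.3.3) on 2000 variable features without the 10 genes, with 30 principal components, resolution 1 and seed 1. A cluster took a class name where the mean log2 level of its markers, relative to the mean over clusters, was at least 1 and led the classes of other tissues by 1, with 3 markers past 2-fold and no more markers of another class than its own among its 10 leading genes (limits chosen once the data had been seen). Clusters below these limits in which the general epithelial markers led were called other epithelial, and the rest stayed unnamed. Epithelial nuclei are goblet, absorptive, enteroendocrine, crypt base, cycling and other epithelial clusters. Stromal classes were clustered again at resolution 0.8 on 15 components.

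CPM have exact Poisson, shares exact binomial and ratios exact conditional 95% intervals, and 0 UMIs allow up to 3. Calls need 50 UMIs over both libraries and a 2-fold CPM ratio. Samples were grouped by genotype label; the design allows no test. Tested on simulated data, the call found 177 of 200 genes changed by 3-fold in fibroblast and 175 of 200 in smooth muscle nuclei, and called 0.407% and 0.295% of the unchanged genes, with counting error only. Genes named are the 10 genes, pathway genes past 2-fold (at most 6 per class), the 2 pathway genes per role with most fibroblast UMIs, the 3 most alike genes, listed genes beside results and markers. The genes and lists were chosen with earlier results of these data known. Alternatives covered the filter, integration, resolution, assignment, thinning, weights, TMM (edgeR 4.0.16) and median-of-ratios (DESeq2 1.42.0) scaling, depth, background RNA and the UMI minimum. Python 3.11.15, numpy 2.4.6, pandas 2.3.3 and scipy 1.17.1 were used. Genes were placed on GRCm38 with GENCODE M21; Rspo1, Rspo3, Wnt2b and Wnt5a overlap predicted genes.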

Additional observations from a re-analysis of the deposited data

Results flagged for a closer look

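Nuclei of no named class, which the comparisons leave out, held UMIs of 5 of the 10 genes above the limit of 3 UMIs that a count of 0 allows: 18 of Rspo3, 11 of Wnt5a, 12 of Sfrp1, 6 of Dkk2 and 9 of Dkk3 in the WT library. These nuclei were 751 in WT and 181 in HIF-1α KO, with fibroblast markers at 315 and 197 CPM, and no cause was tested.

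Dkk3 stood higher in HIF-1α KO in fibroblast nuclei and lower in epithelial nuclei, with log2 ratios of 1.67 and -1.45. The difference between these effects was not tested, and the epithelial value rests on 18 and 14 UMIs, or 1.81 and 0.661 CPM. The part of stromal RNA in the epithelial value was not tested.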

How the results depend on the processing

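No paired analysis was possible because each genotype had 1 library. For the same reason no library could be left out. Over 12 other settings for each of 7 ratios, 82 of 84 values stayed within their counting interval. The other 2 were Dkk2 in smooth muscle nuclei (1.37 by own marker score and 0.39 after thinning, range -1.29 to 1.37), which changed sign without having been called. The ranges were -1.12 to -0.61 for Wnt5a, -1.38 to -0.79 for Sfrp1, 1.14 to 1.99 for Dkk3 and -0.16 to 0.42 for Wnt4 in fibroblast nuclei, and 0.01 to 0.50 for Rspo3 and -0.16 to 0.78 for Dkk3 in smooth muscle nuclei. Of the fibroblast calls, 2 in the report, Dkk3 stayed past 2-fold in each setting that could call it, Sfrp1 in all of these but 1, and Wnt5a joined them with all barcodes, no integration, resolution 2, equal weights of nuclei, either other scaling or the top nuclei left out (chosen after the data were seen), giving 3; Rspo3 joined them without a minimum of UMIs. With nuclei placed by their own marker score 1 was called, and after thinning 0, since no member then had 50 UMIs. In smooth muscle nuclei 2 were past 2-fold without a minimum of UMIs and 1 at a minimum of 20. Pathway genes past 2-fold in fibroblast nuclei numbered 1 in the report, 0 after thinning, 3 with goblet CPM subtracted, 8 without a minimum (2 higher and 6 lower) and 2 at a minimum of 20. No share over all genes is given at these other settings, so their counts of genes past 2-fold are descriptions only. Genes with few UMIs can pass 2-fold by counting error alone. The 7 genes highest in fibroblast nuclei became 2 with every named class ranked. By own marker score the count was 5 (Rspo1, Wnt2b, Wnt4, Wnt5a and Sfrp1), and after thinning 5 (without Wnt2b and Frzb). With the deepest 5% of nuclei left out it was 5 (without Dkk3 and Frzb), and with equal weights of nuclei 6 (without Frzb). The count of genes highest in fibroblast nuclei was not run with TMM or median-of-ratios scaling, which are set between libraries and not between classes. Depth limits all genes but Rspo3, Wnt5a, Sfrp1 and Dkk3 to statements of place, since they have under 50 UMIs in each stromal class.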
